A study of Mus musculus with 8 samples.

Results

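The genes described here are Nkain1, Nkain2, Nkain3 and Nkain4, which encode the Nkain membrane proteins, and Atp1b1 and Atp1b2, which encode beta subunits of the sodium pump. Chromatin accessibility was assayed with ATAC-seq, where open DNA is cut and tagged by the Tn5 transposase, in granule neuron progenitors (GNPs) of the postnatal day 7 mouse cerebellum. A peak, that is a stretch with more tags than its surroundings, was taken as a member when it touched the body of one of these 6 genes or the 10 kb on either side. This gave 120 of the 152984 peaks of the wild-type (WT) list, 77 of 106974 in the heterozygous (het) list and 129 of 174407 in the mutant list. The next 10 kb outward on each side of the 6 windows held 10, 9 and 12 more peaks, which were not used.

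The WT cells carried a floxed Chd7 gene without Cre (Chd7 f/f), the mutant cells were Atoh1-Cre::Chd7 f/f and the het cells Atoh1-Cre::Chd7 f/+, as far as the study's methods name them. The labels say only Chd7 wild type, Chd7 mutant and Chd7 het, with the strain written C56Bl6/J. Chd7 encodes an ATP-dependent chromatin remodeller. Atoh1-Cre acts in the granule cell lineage, and the study holds it probable that the line recombines less well in the posterior lobe, in which case the mutant cells would include some with an intact gene. The cells were purified on a density gradient from pups that were not separated by sex. WT and mutant lists each came from 3 pooled libraries, called technical replicates in the methods, and the het list from 2. Each list is therefore 1 value per genotype: no spread between libraries or mice can be given, and no difference was tested. Intervals of heights and ratios below cover counting error only. Those of shares and medians treat the peaks as independent draws and do not cover spread between libraries or mice. The WT list rests on 50394313 filtered tags, the mutant list on 51030229 and the het list on 30923002. Tag size was 107 bp in WT and het and 76 bp in mutant, and the het list came from another aligner with another extension length, so genotype and processing cannot be told apart in these comparisons.

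The sodium pump (Na,K-ATPase) exports sodium and imports potassium, and so keeps the gradients that neurons spend on signalling. Its alpha subunit does the catalysis, its beta subunit is needed for folding and for delivery to the plasma membrane, and Fxyd proteins modulate it. Nkain proteins are small membrane proteins of the nervous system that were named for their interaction with the beta subunit. Atp1b1 encodes the widespread beta subunit. Atp1b2 encodes a beta subunit, also known as the adhesion molecule on glia, that takes part in the contact of neurons with glial cells in the cerebellum. Nkain3 is one of the genes the study itself named from these libraries, so its peaks are not independent evidence of a direction.

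The identity of the cells was checked at start sites. All 8 GNP markers, among them Atoh1, Zic1 and Neurod1, had a start-site peak in each of the 3 lists, with WT heights (summit pileup per 1000000 tags) of 0.655 to 1.90. Of the markers of other cell types, a WT start-site peak was present for 3 of 4 for Purkinje cells, 4 of 4 for inhibitory interneurons, 2 of 4 for astrocytes and Bergmann glia, 3 of 4 for the oligodendrocyte lineage, 2 of 4 for microglia and 2 of 4 for endothelial cells. Pcp2, Gfap, Aqp4, Sox10, Cx3cr1, Aif1, Pecam1 and Cdh5 had none in any list. Of 21853 protein-coding genes, 62.7% had a start-site peak in all 3 lists, so such a peak alone does not identify a cell type. The summed heights of the astrocyte list were 1.15 in WT and 1.59 in mutant, and those of the microglia list 0.575 and 0.882. Each sum rests on 2 genes, of which Slc1a3 and Csf1r had tallest peaks that did not overlap between WT and mutant. Peaks overlapped at Aldh1l1 (0.417 and 0.686) and P2ry12 (0.258 and 0.549). The sums were 2.34 and 2.31 for Purkinje cells, 2.06 and 2.25 for inhibitory interneurons, and 2.02 in both lists for the oligodendrocyte lineage. They were 1.27 and 1.25 for endothelial cells and 10.2 and 10.6 for GNPs. The endothelial sums also rest on 2 genes, of which Cldn5 had tallest peaks that did not overlap between WT and mutant. The part of other cell types in the values below was not tested, and fewer cells of a type cannot be told apart from less open chromatin per cell.

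Sequence was read from the reference genome (GRCm38, the build of the lists) for 7 peaks of Nkain3 and Nkain2 away from start sites. They were named by lowest or highest ratio, by strength, or by strength without a mutant peak. Each window is 300 bp around the WT summit, read on the plus strand, and overlaps 0 annotated exons. Capitals mark matches, on either strand, to 6 motifs: the E-boxes CAGATG and CAGCTG, of the kind that Atoh1 and Neurod1 recognise, TTGGCA for nuclear factor I, CAGCAGG for Zic proteins, ACAAAG for Sox proteins and the core motif of Ctcf. CAGCTG reads the same on both strands and was counted once. In windows of the same size around all 152982 WT summits on the assembled nuclear chromosomes, these motifs were found in 34.8%, 28.6%, 27.4%, 15.6%, 21.8% and 7.02%, so a match in a given window is common and is a description, not a binding site. The first window, at chr4:20497249-20497548 in intron 1 of Nkain3, holds the shared peak with the lowest mutant to WT ratio of that gene.
Nkain3 lowest ratio: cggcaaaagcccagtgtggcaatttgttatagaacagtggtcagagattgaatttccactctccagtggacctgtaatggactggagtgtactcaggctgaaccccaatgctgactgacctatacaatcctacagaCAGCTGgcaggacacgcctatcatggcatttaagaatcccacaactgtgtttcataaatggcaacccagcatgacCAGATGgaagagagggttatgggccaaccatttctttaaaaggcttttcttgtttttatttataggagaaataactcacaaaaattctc
The next, at chr4:20521908-20522207 in the same intron, holds its strongest WT peak without a mutant peak.
Nkain3 WT alone: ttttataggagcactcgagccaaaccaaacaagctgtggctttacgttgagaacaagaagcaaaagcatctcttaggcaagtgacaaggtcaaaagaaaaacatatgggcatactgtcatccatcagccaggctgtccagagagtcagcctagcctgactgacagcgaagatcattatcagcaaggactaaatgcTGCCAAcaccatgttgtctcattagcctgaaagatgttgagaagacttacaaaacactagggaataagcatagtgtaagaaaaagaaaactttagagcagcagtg
Another window of this intron, at chr4:20527088-20527387, holds its shared peak with the highest ratio.
Nkain3 highest ratio: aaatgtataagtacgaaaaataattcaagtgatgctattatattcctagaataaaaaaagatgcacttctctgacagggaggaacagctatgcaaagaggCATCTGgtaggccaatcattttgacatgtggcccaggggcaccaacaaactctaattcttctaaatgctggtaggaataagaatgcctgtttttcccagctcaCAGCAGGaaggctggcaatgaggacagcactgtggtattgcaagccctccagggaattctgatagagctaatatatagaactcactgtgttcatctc
The strongest Nkain3 peak away from every start site lies in intron 3, with its window at chr4:20460368-20460667. It holds 3 matches to CAGATG and 1 to CAGCTG.
Nkain3 strongest: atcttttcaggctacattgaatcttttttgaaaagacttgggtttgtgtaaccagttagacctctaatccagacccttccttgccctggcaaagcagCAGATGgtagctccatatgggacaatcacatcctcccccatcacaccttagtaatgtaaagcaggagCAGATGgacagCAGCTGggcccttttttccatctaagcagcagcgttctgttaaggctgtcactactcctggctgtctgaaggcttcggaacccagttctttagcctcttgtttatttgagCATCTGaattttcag
For Nkain2, the shared peak with the lowest ratio has its window at chr10:32604505-32604804 in intron 1.
Nkain2 lowest ratio: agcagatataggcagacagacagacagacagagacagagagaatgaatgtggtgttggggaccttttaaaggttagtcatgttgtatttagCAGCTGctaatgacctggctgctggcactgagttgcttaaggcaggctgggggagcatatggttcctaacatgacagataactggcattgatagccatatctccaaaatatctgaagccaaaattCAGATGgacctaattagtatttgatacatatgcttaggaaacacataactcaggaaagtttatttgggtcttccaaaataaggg
Its strongest WT peak without a mutant peak has its window at chr10:32633600-32633899, of which 74.7% is soft-masked as repeat in the reference.
Nkain2 WT alone: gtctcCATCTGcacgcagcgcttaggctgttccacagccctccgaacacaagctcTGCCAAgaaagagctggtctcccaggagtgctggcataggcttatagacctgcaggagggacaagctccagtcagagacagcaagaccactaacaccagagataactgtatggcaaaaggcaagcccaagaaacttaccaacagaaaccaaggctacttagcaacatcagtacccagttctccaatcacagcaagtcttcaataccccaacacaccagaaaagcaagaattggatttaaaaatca
Its shared peak with the highest ratio has its window at chr10:32882107-32882406.
Nkain2 highest ratio: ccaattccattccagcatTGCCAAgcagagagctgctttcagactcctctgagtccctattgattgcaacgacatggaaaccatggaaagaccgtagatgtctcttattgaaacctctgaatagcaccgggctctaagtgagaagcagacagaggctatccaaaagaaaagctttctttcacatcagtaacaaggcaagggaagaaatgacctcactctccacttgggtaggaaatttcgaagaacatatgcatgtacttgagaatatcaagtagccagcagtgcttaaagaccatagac

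Among the sequences shown, CAGATG was in the lowest-ratio windows of both genes, and equally in the highest-ratio and strongest windows of Nkain3 and the unshared window of Nkain2. CAGCTG was in both lowest-ratio windows and in the strongest one. Over the 120 WT windows of the 6 genes, CAGATG was in 41 (34.2%) and CAGCTG in 34 (28.3%), near the shares over all WT windows. CAGCTG was in 29 of the 84 windows whose peak also had a mutant peak (34.5%, against 30.0% of all such WT windows) and in 5 of the 36 without one (13.9%, against 23.6%). CAGCAGG was in 18 of the 84 (21.4%, against 16.3%) and in 0 of the 36, where 13.3% of all WT windows without a mutant peak had it. The Ctcf motif was in 4 of 120 (3.33%).

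All 6 genes had a start-site peak in all 3 lists, which 62.7% of 21853 protein-coding genes had. Ratios of height are given as log2 of mutant over WT with an exact 95% counting interval. At Nkain3 the start-site peak was 1.49 in WT and 1.55 in mutant (log2 0.06, -0.42 to 0.53). At Atp1b1 it was 1.55 and 1.65 (log2 0.09, -0.37 to 0.55). At Nkain4 it was 1.25 and 1.31 (log2 0.07, -0.45 to 0.59). These 3 were the tallest of the 6. Nkain2 had 1.03 and 0.999 (log2 -0.05, -0.63 to 0.54). Atp1b2 had 0.734 and 0.627 (log2 -0.23, -0.96 to 0.49). Nkain1 had 0.437 and 0.470 (log2 0.11, -0.79 to 1.01) and was the lowest of the 6 in both lists. All 6 intervals include 0, so that no difference at a start site was detectable at this depth, and neighbours in the order of heights overlap in their Poisson intervals.

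**Figure D1:**
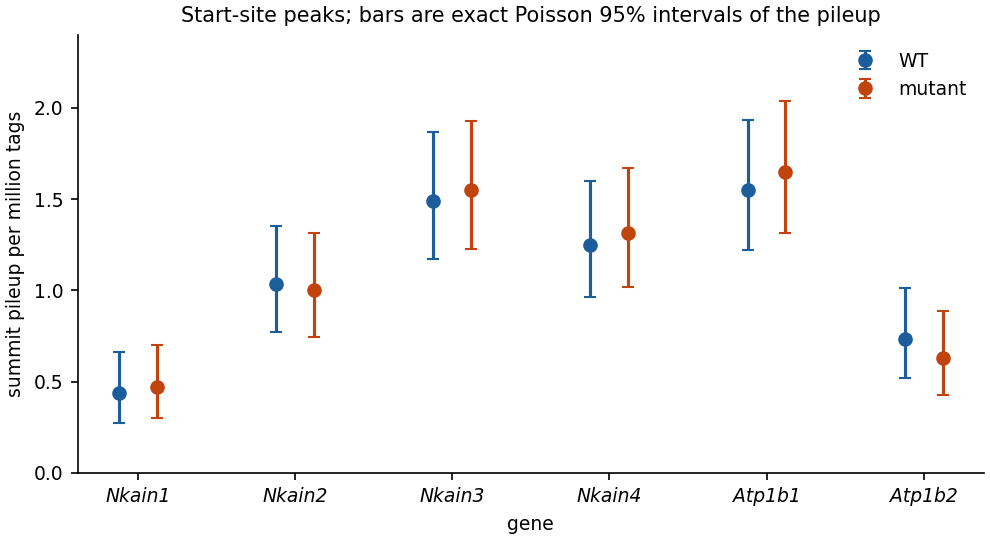
Height, that is summit pileup per 1000000 tags (vertical axis), of the start-site peak of each of the 6 genes (horizontal axis) in the WT and mutant lists. Points are the pooled value of each list and bars its exact Poisson 95% interval; the WT and mutant intervals overlap at every gene.

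RefSeq promoter entries matched 3 of the 6 genes (Nkain1, Nkain2 and Atp1b1). Nkain3, Nkain4 and Atp1b2 had none. The Atp1b1 promoter lies under the tallest start-site peak, chr1:164457668-164458906 in WT, and is shown as the 250 bases upstream of the RefSeq start (GRCm38.p6, chr1:164458356-164458605, minus strand, written 5′ to 3′ along the gene).
Atp1b1 promoter: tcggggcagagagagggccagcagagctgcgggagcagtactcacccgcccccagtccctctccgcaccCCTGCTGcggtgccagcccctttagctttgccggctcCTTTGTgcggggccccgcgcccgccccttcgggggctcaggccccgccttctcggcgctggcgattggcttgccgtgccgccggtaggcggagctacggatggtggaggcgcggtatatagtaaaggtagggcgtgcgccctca
It is 70.4% G and C. It holds 1 match to CAGCAGG, which 8.44% of 32851 promoters of that length hold, and 1 to ACAAAG, held by 16.5%, and no E-box of either kind.

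Away from start sites the 6 genes differed widely. In WT, 95 of the 120 peaks lay in introns, 10 at a start site of the gene itself, 2 at the start of another transcript, 3 in exons, 5 upstream and 5 downstream. Nkain2 is the longest of the 6 (1201 kb, chromosome 10, 31689310 to 32890462) and had 43 WT, 22 het and 46 mutant peaks. Nkain3 spans 660 kb (chromosome 4, 20118874 to 20778866) and had 49, 34 and 52. Nkain1 (42.6 kb, chromosome 4, 130531602 to 130574173) had 15, 11 and 14. Nkain4 (chromosome 2, 180934772 to 180954699) had 4, 3 and 5, Atp1b1 (chromosome 1, 164437109 to 164458355) 4, 4 and 6, and Atp1b2 (chromosome 11, 69599736 to 69605942) 5, 3 and 6. All 6 are on the minus strand. Per 100 kb of window, WT peaks numbered 24.0 at Nkain1, 19.1 at Atp1b2, 10.02 at Nkain4, 9.70 at Atp1b1, 7.21 at Nkain3 and 3.52 at Nkain2. The median -log10 q of WT peaks was 4.17 at Nkain2 and 6.24 at Nkain3, beside 6.66 over the whole list.

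Joining peaks within 300 bp across the lists gave 153 regions for the 6 genes. Of these, 59 were in all 3 lists (38.6%, against 45.7% of all 190582 regions), 21 in WT and mutant alone (13.7%, against 12.7%), 26 in WT alone (17.0%, against 13.3%) and 32 in mutant alone (20.9%, against 20.1%). Nkain2 had 15 of 64 in all 3 lists (23.4%) and Nkain3 25 of 61 (41.0%), while Nkain1 had 10 of 14 and Atp1b1 4 of 5.

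Of the 120 WT peaks, 36 had no overlapping mutant peak (30.0%, Wilson 95% interval 22.5 to 38.7%), where the share over the WT list was 22.8%. Conversely, 42 of 129 mutant peaks lacked a WT partner (32.6%, 25.1 to 41.0%), beside 30.7% over the mutant list. The unshared WT peaks lay in 3 of the genes. Nkain2 had 18 of 43 (41.9%, 28.4 to 56.7%), Nkain3 15 of 49 (30.6%, 19.5 to 44.5%) and Nkain1 3 of 15 (interval 7.05 to 45.2%). Nkain4, Atp1b1 and Atp1b2 had 0 of 4, 0 of 4 and 0 of 5, where so few peaks allow a share of up to 49.0%, 49.0% and 43.4% by the same interval. In the opposite direction at Nkain2 a WT partner was lacking for 21 of 46 mutant peaks (45.7%, 32.2 to 59.8%) and at Nkain3 for 16 of 52 (30.8%, 19.9 to 44.3%). These shares were also taken with lists of equal length, a cut that removes the weakest peaks as well. With each list cut to its 106974 strongest peaks, 12 of 37 WT peaks (32.4%) and 3 of 29 mutant peaks (10.3%) were unshared at Nkain3, and 5 of 21 (23.8%) and 1 of 17 (5.88%) at Nkain2, against 19.6% and 18.6% of the lists cut in the same way.

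**Figure D2:**
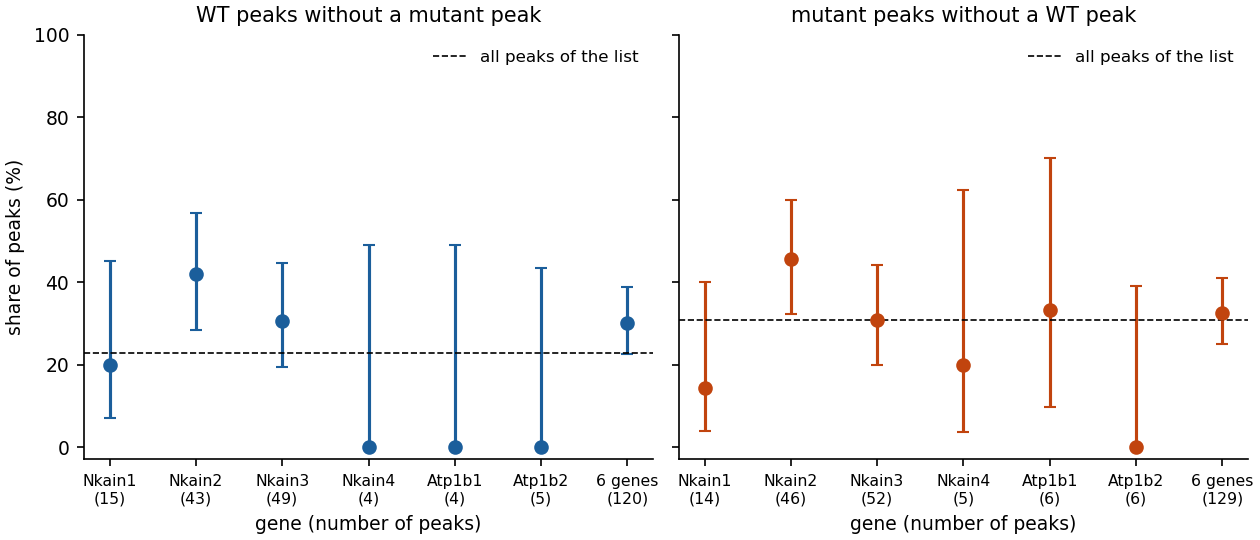
Share of peaks (vertical axis, percent) without an overlapping peak in the other list, per gene (horizontal axis, with the number of peaks), for WT peaks on the left and mutant peaks on the right. Points are shares, bars Wilson 95% intervals and the dashed line the share over all peaks of the list. The interval of Nkain2 lies above the line in both panels, at 22.8% on the left and 30.7% on the right.

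Most unshared peaks were weak ones, near the limit of detection. Of WT peaks with a -log10 q under 5, 27 of 47 had no mutant peak (57.4%, against 50.7% of all such peaks). Of those with a -log10 q of 5 or more, 9 of 73 had none (12.3%, 6.62 to 21.8%, against 5.78%). Among mutant peaks, a WT partner was lacking for 38 of 64 weaker ones (59.4%, against 63.7%) and 4 of 65 stronger ones (6.15%, 2.42 to 14.8%, against 11.2%). By gene, Nkain3 had 6 of 33 stronger WT peaks without a mutant peak (18.2%, 8.61 to 34.4%) and 4 of 30 stronger mutant peaks lacking a WT partner (13.3%, 5.31 to 29.7%). Nkain2 had 3 of 20 (15.0%, 5.24 to 36.0%) and 0 of 17 (up to 18.4%). The 9 stronger unshared WT peaks had -log10 q values of 5.29 to 8.47, and 1 of them lay within 300 bp of a mutant peak. Counting only peaks with nothing within 300 bp in the other list left 8 of the 73 (11.0%, against 4.96%) and 3 of the 65 (4.62%, against 9.84%).

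The strongest unshared WT peak of Nkain3, chr4:20521989-20522125 in intron 1 and 257 kb from the start site, had a pileup of 24 tags (height 0.476, -log10 q 7.93). No mutant peak and no het peak lay near it. The strongest unshared WT peak of Nkain2, chr10:32633572-32633821, had a pileup of 16 (height 0.317, -log10 q 8.47) and did have a het peak. At Nkain1 it was chr4:130568153-130568258 (height 0.298, -log10 q 4.53), again with a het peak. Among mutant peaks, the strongest without a WT peak were chr4:20437424-20437547 at Nkain3 (height 0.274, -log10 q 6.96), chr10:32490212-32490377 at Nkain2 (height 0.216, -log10 q 4.61) and chr1:164454858-164454960 in intron 1 of Atp1b1 (height 0.529, -log10 q 4.20). None of these 3 had a het peak.

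For peaks present in both lists the heights could be compared directly. Over the 84 shared WT peaks of the 6 genes the median log2 ratio was -0.02 (-0.14 to 0.06), beside 0.08 over all 118098 shared peaks. The mutant height was the lower at 50 of the 84 (59.5%), against 42.4% of all shared peaks. By gene, it was lower at 23 of 34 for Nkain3 (median log2 -0.09, -0.30 to 0.06), 8 of 12 for Nkain1 (median -0.18, -0.49 to 0.16), 11 of 25 for Nkain2 (median 0.06, -0.12 to 0.11), 4 of 5 for Atp1b2, 2 of 4 for Nkain4 and 2 of 4 for Atp1b1. These counts include 9 peaks with the same number of tags in both lists (10.7%, against 8.15%), which are lower only through the scaling to depth: 3 at Nkain3, 2 at Nkain2, 2 at Atp1b2, 1 at Nkain4 and 1 at Atp1b1. Fewer tags at the mutant summit were found at 41 of the 84 (48.8%, against 34.2%). A difference of 1.5-fold or more was found at 5 of the 84 in the lower direction (5.95%, against 3.61%) and 3 in the higher (3.57%, against 8.37%). All 8 belonged to Nkain3 (3 lower and 2 higher) and Nkain2 (2 lower and 1 higher).

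**Figure D3:**
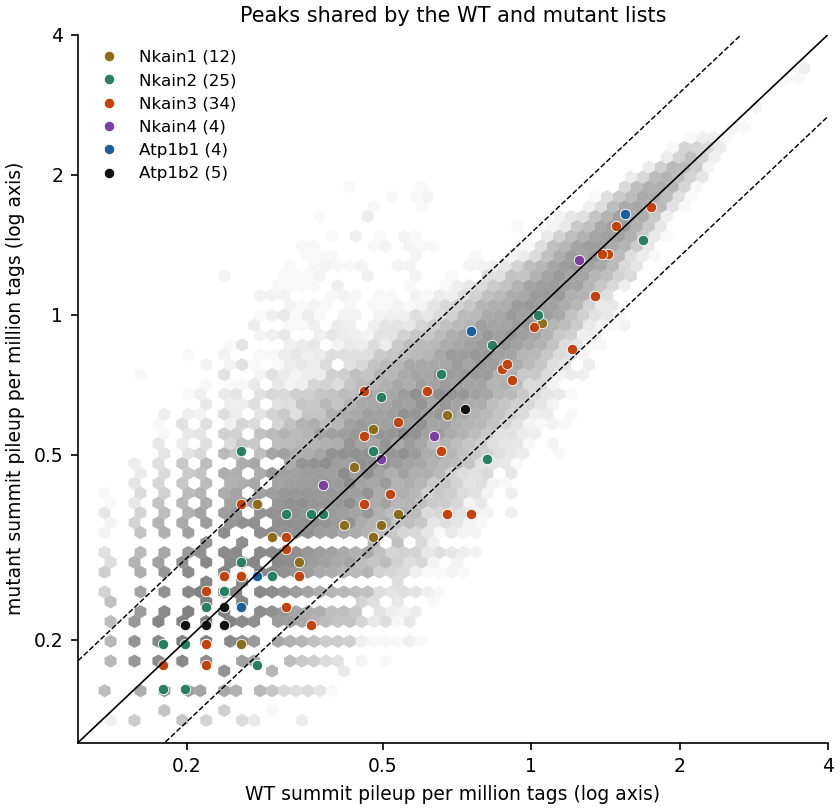
Height in WT (horizontal axis) against mutant (vertical axis), both as summit pileup per 1000000 tags on log axes, for the 84 shared WT peaks of the 6 genes (coloured points, number per gene in the key) over all 118098 shared peaks (grey, darker where more). The solid line marks equal heights and the dashed lines a 1.5-fold difference; 5 coloured points lie on or below the lower dashed line and 3 on or above the upper one.

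Nkain3 showed the lowest ratio of any peak compared in the 6 genes. The peak chr4:20497226-20497483, in intron 1 and 281 kb from the start site, had 38 tags at its WT summit and 19 at the mutant summit (heights 0.754 and 0.372, log2 -1.02, -1.89 to -0.19). Its -log10 q ranked at or above 92.3% of all peaks in WT and 69.4% in mutant. A het peak overlapped it. A second intron 1 peak, chr4:20638867-20639593, had 0.675 in WT and 0.372 in mutant (log2 -0.86, -1.75 to -0.01), but differed by less in the caller's fold enrichment over local background (log2 -0.35, against -0.95 for the first). The other one past 1.5-fold was a peak in intron 4, chr4:20273398-20273539, with 0.357 and 0.216 (log2 -0.73, -1.96 to 0.43). Its -log10 q was 11.0 in WT and 4.61 in mutant. The first 2 were the only peaks of the 84 whose counting interval lay wholly below 0 (2.38%, against 0.514% of all shared peaks), and 0 lay wholly above (against 1.43%). They were singled out as the lowest of many, and their intervals do not allow for that. The highest ratio at Nkain3 was at chr4:20527172-20527456, also in intron 1, with 0.258 in WT and 0.392 in mutant (log2 0.60, -0.48 to 1.73). The downstream peak chr4:20111610-20111970 had 0.456 and 0.686 (log2 0.59, -0.21 to 1.41).

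Along Nkain3 the values were also taken by intron, where the unshared counts are to be read against 22.8% of all WT and 30.7% of all mutant peaks. The lower counts are to be read against 42.4% of all shared peaks, whose median log2 ratio was 0.08. In intron 1 (293 kb), the mutant height was lower at 11 of 14 shared peaks (median log2 -0.15), and 7 of 21 WT peaks had no mutant peak while 2 of 16 mutant peaks had no WT peak. In intron 2 (15.4 kb) it was lower at 1 of 2 shared peaks, with 0 of 2 WT and 2 of 4 mutant peaks unshared. In intron 3 (186 kb) it was lower at 7 of 7 (median log2 -0.30), with 1 of 8 WT and 3 of 11 mutant peaks unshared. In intron 4 (124 kb) it was lower at 3 of 8 (median log2 0.10), with 5 of 13 WT and 5 of 14 mutant peaks unshared. In intron 5 all 4 mutant peaks, and the only WT peak, were unshared. The lower counts include peaks with equal tags, 2 in intron 1 and 1 in intron 3. This split by intron was looked at after the values were seen.

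The 5 tallest intronic WT peaks of Nkain3 were present in all 3 lists. The strongest away from every start site, chr4:20460151-20460807, had 1.35 in WT and 1.10 in mutant (log2 -0.30, -0.83 to 0.23). Its -log10 q ranked at or above 99.0% of all peaks in WT and 97.0% in mutant. The tallest, chr4:20343159-20343988, lies at the start of the antisense non-coding transcript Gm11872 within intron 3 and had 1.75 and 1.70 (log2 -0.03, -0.48 to 0.41). A neighbouring pair in the same intron, chr4:20316978-20317439 and chr4:20317905-20318341, had 1.21 against 0.843 (log2 -0.52, -1.12 to 0.06) and 1.43 against 1.35 (log2 -0.08, -0.58 to 0.42). The peak at chr4:20518083-20518617 in intron 1 had 1.39 and 1.35 (log2 -0.04, -0.54 to 0.46).

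**Figure D4:**
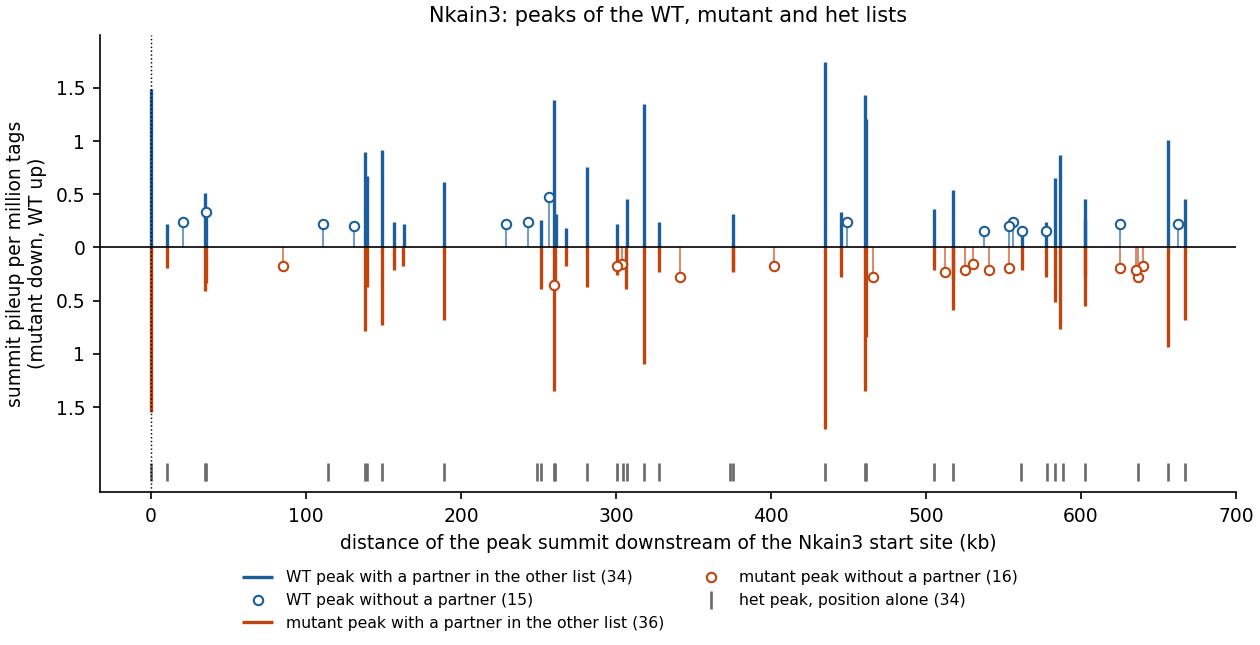
Peaks of Nkain3 by distance of their summit downstream of the start site (horizontal axis, kb), with the summit pileup per 1000000 tags upward for WT and downward for mutant (vertical axis). Open circles mark peaks without a partner in the other list (15 WT, 16 mutant) and grey ticks the positions of the 34 het peaks; tall peaks appear on both sides of the axis and open circles are short.

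At Nkain2, the peak with the lowest ratio among those of -log10 q 5 or more in both lists was chr10:32604323-32605050 in intron 1, 286 kb from the start site, with 0.814 in WT and 0.490 in mutant (log2 -0.73, -1.51 to 0.02). The highest was chr10:32881989-32882397 in intron 1, 8.21 kb from the start site, with 0.258 in WT and 0.510 in mutant (log2 0.98, -0.03 to 2.07). Its -log10 q ranked at or above 48.2% of all peaks in WT and 81.6% in mutant, and a het peak overlapped it. The strongest Nkain2 peak away from start sites, chr10:31873319-31873982 in intron 4, lies 1017 kb from the start site and had 1.69 and 1.45 (log2 -0.22, -0.69 to 0.25). Unlike those of Nkain3, the shared peaks of its introns 1 and 3 had medians above 0 (log2 0.09 over 12 peaks and 0.10 over 5). These are near the median of 0.08 over all shared peaks, and the contrast between the 2 genes was not tested.

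**Figure D5:**
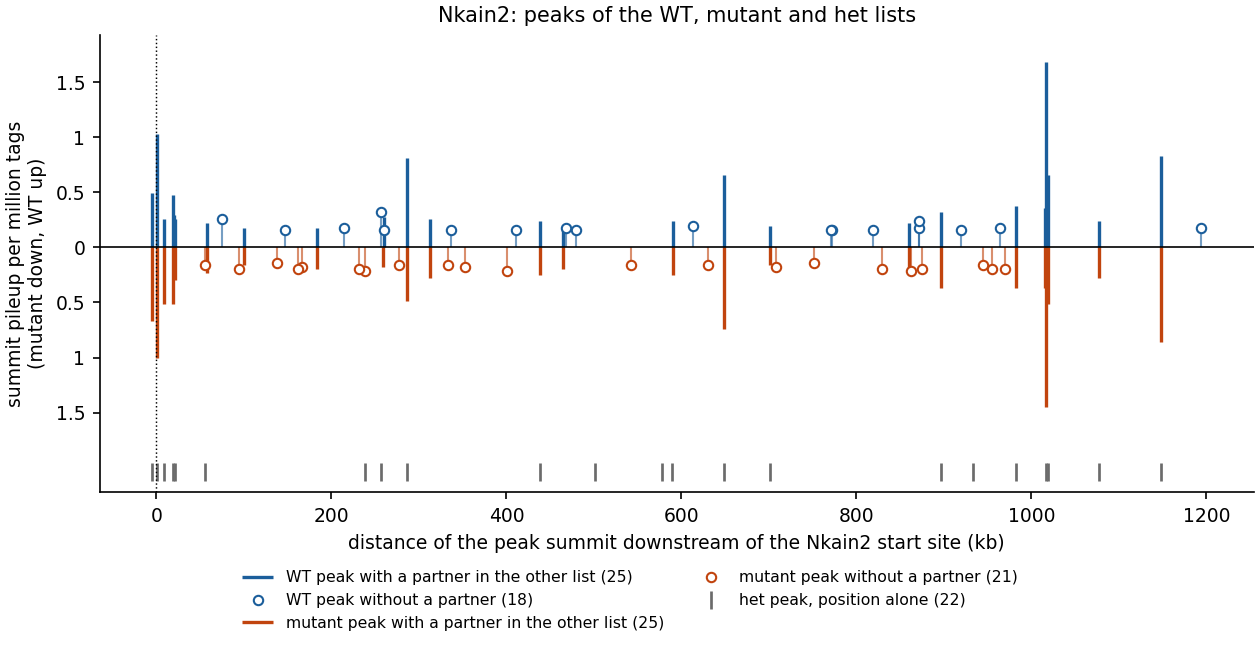
Peaks of Nkain2 by distance of their summit downstream of the start site (horizontal axis, kb), drawn as for Nkain3, with WT upward and mutant downward in summit pileup per 1000000 tags (vertical axis) and 22 het peaks as grey ticks. Few peaks are tall, and the 18 WT and 21 mutant peaks without a partner (open circles) are all short and lie along the gene.

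At Nkain1 no shared peak differed by 1.5-fold. Its strongest peak away from a start site, chr4:130539491-130540270 in intron 1, had 1.05 and 0.960 (log2 -0.13, -0.72 to 0.46). Its lowest ratio was at chr4:130556347-130556592 (0.536 and 0.372, log2 -0.53, -1.45 to 0.38) and its highest in exon 7, at chr4:130531736-130531896 (0.278 and 0.392, log2 0.50, -0.56 to 1.59). Nkain4, Atp1b1 and Atp1b2 kept every WT peak in the mutant list. At Nkain4 the peak 9.49 kb upstream, chr2:180964084-180964290, had 0.635 and 0.549 (log2 -0.21, -0.996 to 0.57). At Atp1b1 the peak chr1:164461792-164462199, at the start of the non-coding transcript Gm32391, had 0.754 and 0.921 (log2 0.29, -0.36 to 0.94), and the one 9.31 kb upstream, chr1:164467573-164467743, had 14 tags in both lists. At Atp1b2 the peak 8.30 kb upstream, chr11:69614081-69614209, had 12 tags in both. No shared peak of these 3 genes differed by 1.5-fold.

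Het peaks could be compared by presence alone. Of the 120 WT peaks, 65 had a het peak (54.2%, 45.3 to 62.8%), beside 63.1% of the WT list. The share was 39.5% at Nkain2 (17 of 43) and 57.1% at Nkain3 (28 of 49), and 11 of 15 at Nkain1. Of the 129 mutant peaks, 67 had a het peak (51.9%, against 58.7%). Of the 77 het peaks, 63 had a WT peak (81.8%, against 86.7%) and 62 a mutant peak (80.5%, against 89.3%). Neither was found for 11 of the 77 (14.3%, against 7.41%), of which 5 lay in Nkain2, 5 in Nkain3 and 1 in Atp1b2.

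The peak chr4:20191824-20191986 in intron 4 of Nkain3, chosen after its values were seen, was strong in WT (height 0.873, -log10 q 34.3) and in mutant (height 0.764, log2 -0.19, -0.85 to 0.46) and yet lacked any het peak within 300 bp. Of the 12216 WT peaks at or above its -log10 q, 21 lacked one (0.172%). Its 300 bp window is 49.0% soft-masked as repeat in the reference. The part of the aligner, of the settings and of the genotype in this was not tested.

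Among 9 other sodium pump genes, the beta subunits Atp1b3 and Atp1b4 and the modulators Fxyd1 to Fxyd7, the lists held 30 WT, 24 het and 32 mutant peaks. A mutant partner was lacking for 8 of the WT peaks (26.7%, 14.2 to 44.4%, against 22.8%) and a WT partner for 10 of the mutant peaks (31.2%, 18.0 to 48.6%, against 30.7%), both near the shares over all peaks. The 22 shared peaks had a median log2 ratio of 0.01 (-0.20 to 0.21), with the mutant lower at 11, beside 0.08 and 42.4% over all shared peaks. A difference of 1.5-fold was found at 2 in the lower direction (9.09%, against 3.61%) and 1 in the higher (4.55%, against 8.37%). Of the 9, Atp1b3 and Fxyd6 had a start-site peak in all 3 lists. That of Atp1b3 was 1.71 in WT and 1.53 in mutant (log2 -0.16, -0.62 to 0.30), and that of Fxyd6 0.357 and 0.431 (log2 0.27, -0.69 to 1.26). Windows of neighbouring Fxyd genes overlap, those of Fxyd1 and Fxyd7 with the same peaks, and a peak in several windows was counted once.

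The genes whose pattern lay nearest to that of Nkain3 were Nell1, Prune2, Pcsk2, Cers6 and Diaph3, among 937 protein-coding genes with at least 20 WT peaks. Likeness was the distance over 4 shares and medians (WT peaks without a mutant peak, mutant peaks without a WT peak, median log2 ratio, WT peaks with a het peak), each scaled by its SD, and was 0.244 for Nell1. Nkain2 lay at a distance of 2.75. From the lowest, the median log2 ratio of Nkain3 was in place 68 of the 937 and that of Nkain2 in place 439, and their shares of WT peaks without a mutant peak in places 765 and 883.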

How the data were processed

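3 peak lists, which the authors had called on pooled ATAC-seq libraries, 1 list per genotype (WT 3 libraries, mutant 3, het 2), were analysed in mm10. Per the labels, reads were trimmed with Trim Galore 0.4.1, aligned with STAR 2.5.0b (WT, mutant) or Bowtie 1.0.0 (het) and handled with Picard 1.139; the study's methods describe bowtie and a read shift throughout, which only the het header shows. Per the file headers, the authors called peaks with MACS2 2.1.0.20150731 with no control library and a q-value limit of 0.05, using extensions of 90, 88 and 200 bp for WT, mutant and het. The signal the authors deposited is the summit pileup in whole tags, not scaled for depth. The deposited fold enrichment is the caller's ratio of pileup to local background, and the deposited -log10 q is its significance, which grows with depth.

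Pileup was scaled to 1000000 tags after filtering. Peaks sharing at least 1 bp were called shared, and a WT peak was set against the tallest overlapping mutant peak. Het heights were not compared, because of the longer extension. Genes were those of GENCODE release M21. Intervals are Wilson (shares), order-statistic (medians), exact Poisson (heights) and exact conditional (ratios), all at 95%. Those of heights and ratios cover counting error only, and PCR copies are not separate molecules. Those of shares and medians treat the peaks as independent draws and do not cover spread between libraries or mice. The steps were tested on simulated data. The genes, gene lists and motifs were chosen with earlier results of these data known, and some genes of the lists are not reported here. Start-site peaks were named by position; other peaks by strength away from start sites, by strength without a partner within 300 bp, and by lowest and highest ratio among peaks of -log10 q 5 or more in both lists. Others were picked after their values were seen. Python 3.11.15, numpy 2.4.6, pandas 2.3.3, scipy 1.17.1 and pysam 0.24.0 were used.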

Additional observations from a re-analysis of the deposited data

How the results depend on the processing

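The share of unshared WT peaks stood above that of the whole list in each setting with a value for both. The list value lay inside the interval in each of them except at higher peak strength (6.62 to 21.8%, against 5.78%). Unshared mutant peaks were slightly above the list in the main setting (32.6%, against 30.7%), with 50% reciprocal overlap and with peaks within 300 bp joined (27.9%, against 26.5%). They were below it at higher peak strength and with lists of equal length. All settings reuse the same peaks. Keeping peaks of -log10 q 5 or more left 73 WT and 65 mutant peaks. Unshared WT peaks were then 12.3% (5.78% of the list), unshared mutant peaks 6.15% (11.2%) and WT peaks with a het peak 76.7% (84.2%). Requiring 50% reciprocal overlap gave 41.7% (35.9% of the list), 45.7% (43.8%) and 45.0% (50.1%). With each list cut to its 106974 strongest peaks, unshared mutant peaks were 4 of 64 (6.25%, against 18.6%) and WT peaks with a het peak 75% (79.3%), while unshared WT peaks were 26.2% (19.6%). The same cut left Nkain3 at 32.4% of WT peaks unshared and moved its mutant peaks from 30.8% to 10.3%, and moved Nkain2 from 41.9% to 23.8% of WT peaks and from 45.7% to 5.88% of mutant peaks. Shared peaks past 1.5-fold were 2 lower and 2 higher by fold enrichment in place of pileup, and 8 lower and 1 higher after centring on the median of all shared peaks. By fold enrichment the median log2 ratio of the 6 genes was 0.02 and that of Nkain3 -0.01, while the lowest Nkain3 ratio was -0.95. After centring, the median was -0.09 (-0.22 to -0.02) for the 6 genes, -0.17 (-0.37 to -0.02) for Nkain3 and -0.02 (-0.19 to 0.03) for Nkain2. Without centring, and by fold enrichment, the intervals of the 6 genes and of Nkain3 include 0. Using gene bodies alone, joining peaks within 300 bp or one-to-one pairs moved none of the values given for the 6 genes beyond its interval, or, for counts, past 1.5 times. The cause of these shifts was not tested. No paired analysis was possible because each list pools the libraries of its genotype and carries no replicate number. For the same reason leaving out single replicates was not run. Summit pileups of at most 88 tags in WT limit each ratio.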

Other observations

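Repeat content differed between shared and unshared peaks of the 6 genes. Windows that were over 50% soft-masked made up 30.6% of the 36 WT peaks without a mutant peak and 5.95% of the 84 with one, and over the whole WT list the shares were 16.0% and 3.35%. By gene they made up 25.6% of WT windows at Nkain2, 10.2% at Nkain3 and 0% at the other 4 genes. The median G and C content was 43.3% at Nkain3 and 45.0% at Nkain2, beside 48.7% over all WT windows without a mutant peak and 50.7% over those with one, and 57.0% at Nkain1.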
